A study of Homo sapiens with 12 samples.

Results

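The 47 genes described here encode the machinery that moves newly made proteins into the endoplasmic reticulum (ER) and between the ER and the Golgi apparatus. They were chosen by function, as a fixed list of symbols, from the 34643 gene symbols measured in the series. Earlier results of these data were known when they were chosen, so the shares of members called below are descriptions. The list holds 14 genes of the translocon and its targeting and signal peptidase factors, 12 of the COPII coat and its partners, 10 of the COPI coat and its ARF GTPases, and 11 cargo receptors. 46 were found in the deposited values under their own symbol, and SRPR was found under its current symbol SRPRA. All 47 passed the filter on low counts that left 15419 genes for testing.

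The study measured RNA by sequencing in LNCaP, a human prostate cancer line that responds to androgen, in which TMEFF2, a transmembrane protein of prostate and brain, was targeted by RNA interference. Cells had been transduced with lentiviral pLKO.1-puro vectors in which a U6 promoter drives a short hairpin RNA, aimed at TMEFF2 (sh_TMEFF2) or, as the control, a scramble sequence (sh_scramble). All cells were kept for 24 h in medium with hormone-stripped serum and then received 10 nM dihydrotestosterone (DHT), the androgen, or ethanol for 24 h. Each line has a −DHT and a +DHT group, with 3 libraries each. The labels give 17 days of the hairpin and state that the repeats were treated and extracted separately from 2 transductions. They do not say which transduction a repeat came from, or which of the hairpins against TMEFF2 the sequenced cells carried. P-values here therefore measure the spread between these repeats.

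A protein with a signal sequence is recognised on the ribosome by the signal recognition particle, docked at its receptor and passed through the SEC61 channel, where signal peptidase removes the signal. Folded cargo leaves the ER in vesicles coated with COPII, which the GTPase SAR1 starts and SEC23, SEC24, SEC13 and SEC31 build. COPI vesicles, started by ARF GTPases, carry escaped ER proteins and empty receptors back. Prostate luminal cells are secretory cells and export kallikreins such as PSA, the product of KLK3, by this route.

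Library totals were 19450866 to 22612046 counts, with a median of 21194622, and the members held 37 to 16429 counts in a library, and 560 or more once KDELR3, the member with the fewest, is set aside. Levels are given as CPM, the counts scaled to a common library size, after TMM normalization, an edgeR scaling that sets most genes level between libraries. TMEFF2 mRNA, the target of the hairpin, stood at 77.8, 73.8 and 103 CPM in sh_scramble −DHT, 173, 117 and 169 in sh_scramble +DHT, 68.7, 39.4 and 81.7 in sh_TMEFF2 −DHT and 142, 90.1 and 114 in sh_TMEFF2 +DHT. The sh_TMEFF2 libraries lay lower on average at both DHT levels, and the groups overlapped. On the log2 scale sh_TMEFF2 differed from sh_scramble by −0.43 without DHT (SE 0.25, adjusted p = 0.5 by edgeR) and −0.41 with DHT (SE 0.25, adjusted p = 0.3 by edgeR). Neither difference passed the threshold, so within these libraries the sh_TMEFF2 groups rest on their labels. Outside the sequencing, the study shows lowered TMEFF2 protein in LNCaP by Western blot. It also gives TMEFF2 mRNA levels of hairpin and scramble cells at both DHT levels. Luminal markers of LNCaP were abundant in every library, with a sum of 4240 to 13500 CPM over 7 genes that KLK3 led at up to 7740 CPM. The sums of markers of other cell types stayed at 0 to 1.77 CPM for 3 basal genes, with KRT5 at 0 in every library and KRT14 highest at 1.46 CPM. They were 12.6 to 33.9 CPM for 4 fibroblast genes (COL1A1 up to 30.4 CPM), 3.5 to 8.08 CPM for 3 blood genes (PTPRC up to 7.74 CPM) and 13.3 to 29.5 CPM for 3 endothelial genes (VWF up to 28.3 CPM).

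DHT raised nearly the whole machinery in sh_scramble cells and little of it in sh_TMEFF2 cells. In sh_scramble, 43 of the 47 members rose and 0 fell at an adjusted p of at most 0.05, by the quasi-likelihood test of edgeR, adjusted by Benjamini-Hochberg over all 15419 genes. Of all genes tested, 14.4% rose and 12.6% fell by this rule. The members' median log2 fold change was 0.54, against −0.01 over all genes tested. A fold of at least 1.5, the study's limit, was also reached by 18 members, compared with 5.45% of all genes. The 4 members that did not pass were SEC23A, COPA, COPG2 and KDELR1. These 4 were also the members whose +DHT and −DHT libraries overlapped. In the other 43, all 3 +DHT libraries lay above all 3 −DHT libraries, which held for 21.3% of all genes.

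In sh_TMEFF2, 7 members rose with DHT and 0 fell, where 7.84% of all genes rose and 5.21% fell. The 7 were SEC61G, SSR3, SPCS3, SEC11C, TMED2, LMAN1 and KDELR2. DESeq2 called 13, and without sh_TMEFF2 +DHT replicate 3 edgeR called 4, with SPCS3, TMED2 and KDELR2 lost. SEC11C, at 0.74 on the log2 scale, was the only one with a fold of at least 1.5, a size reached by 3.28% of all genes. The median log2 fold change of the 47 members was 0.03, against −0.02 over all genes. All +DHT libraries lay above all −DHT libraries for 14 members (15.6% of all genes) and below them for 4 members (15.7% of all genes).

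Summed over the 47 members, libraries of sh_scramble −DHT held 8364, 8311 and 8186 CPM and those of sh_scramble +DHT 13388, 12127 and 11905 CPM. The sums were 8418, 8642 and 8285 CPM in sh_TMEFF2 −DHT and 8856, 8956 and 8865 CPM in sh_TMEFF2 +DHT. The 3 sh_scramble +DHT libraries stood above all others, and the sh_TMEFF2 +DHT libraries stood just above both −DHT groups. Within sh_scramble +DHT, replicate 1 was the highest in all 4 roles, and its members had a median log2 difference of 0.64 from the sh_scramble −DHT mean, compared with 0.49 and 0.48 in replicates 2 and 3. In these bulk libraries, fewer cells that carry a transcript and less of it per cell cannot be told apart.

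**Figure D1:**
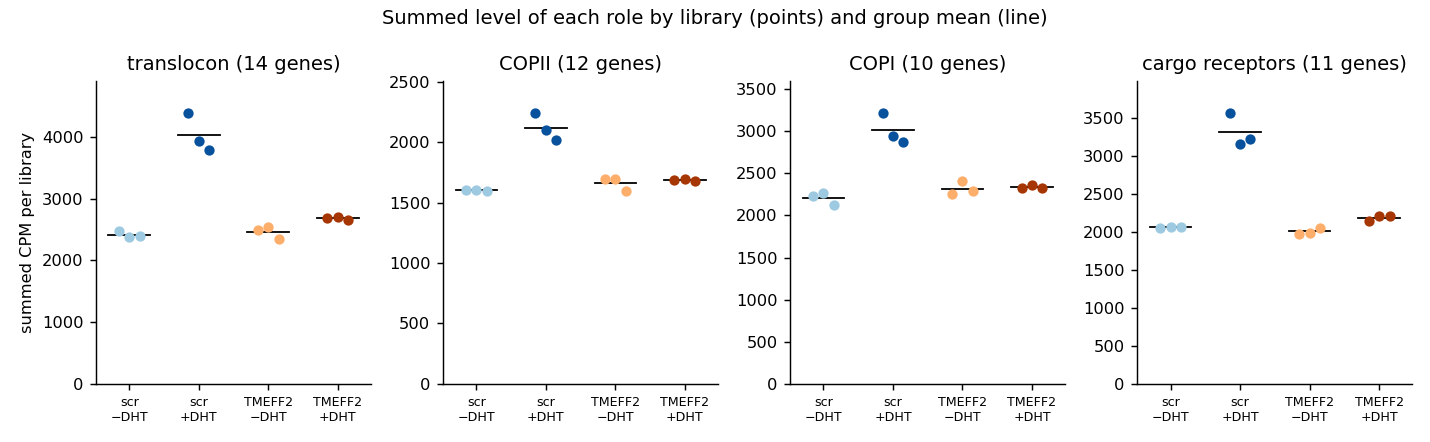
Summed TMM-normalized CPM (linear axis from 0) of the members of each role in each library, by group, where points are libraries and lines are group means (n = 3). In each role the 3 sh_scramble +DHT libraries lie above all 9 others, for the translocon at 4382, 3940.2 and 3783 CPM against means of 2417, 2462 and 2681 CPM in the other groups.

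All 14 translocon genes rose with DHT in sh_scramble, from 0.24 for SRP54 to 1.35 for SSR3 (log2), and their median was 0.69. SSR3, a subunit of the TRAP complex beside the SEC61 channel, had 174, 154 and 158 CPM in sh_scramble −DHT, 459.6, 403 and 379 in sh_scramble +DHT, 183, 182 and 159.9 in sh_TMEFF2 −DHT and 218, 234 and 236 in sh_TMEFF2 +DHT. The sh_scramble +DHT libraries were far above the rest, and the sh_TMEFF2 +DHT libraries lay between them and both −DHT groups without overlap. Its log2 response to DHT was 1.35 in sh_scramble (SE 0.08, adjusted p = 2.5e-07 by edgeR) and 0.39 in sh_TMEFF2 (SE 0.08, adjusted p = 0.0085 by edgeR). The other TRAP subunits rose in sh_scramble by 0.95 (SSR1), 0.79 (SSR2) and 0.48 (SSR4).

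SEC61G, a small subunit of the channel itself, had 64.0, 63.1 and 63.2 CPM in sh_scramble −DHT, 134, 137 and 124 in sh_scramble +DHT, 64.8, 62.3 and 57.3 in sh_TMEFF2 −DHT and 77.5, 74.9 and 78.0 in sh_TMEFF2 +DHT. The order of the groups was that of SSR3, with sh_TMEFF2 +DHT above both −DHT groups and well under sh_scramble +DHT. The log2 response was 1.05 in sh_scramble (SE 0.06, adjusted p = 2.1e-07 by edgeR) and 0.32 in sh_TMEFF2 (SE 0.06, adjusted p = 0.006 by edgeR). SEC61B, the other small subunit, had 85.6, 83.7 and 77.7 CPM in sh_scramble −DHT, 166, 146 and 145 in sh_scramble +DHT, 82.3, 83.2 and 80.0 in sh_TMEFF2 −DHT and 92.0, 95.5 and 95.8 in sh_TMEFF2 +DHT. Again no group overlapped the next between sh_scramble +DHT, sh_TMEFF2 +DHT and the −DHT libraries. Its response was 0.89 in sh_scramble (SE 0.07, adjusted p = 1.3e-06 by edgeR), while the 0.21 in sh_TMEFF2 did not pass the threshold (adjusted p = 0.059 by edgeR). DESeq2 called SEC61B there, as did edgeR with the replicate number as a block. SEC61A1, which forms the pore, rose by 0.56 in sh_scramble and had a response of 0.00 in sh_TMEFF2.

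Of the 3 signal peptidase genes among the members, SEC11C and SPCS3 had larger responses in sh_scramble than SPCS2. SEC11C, a catalytic subunit, rose from 102 ± 6.92 to 258 ± 21.4 CPM with DHT in sh_scramble (SD, n = 3), and from 82.3 ± 3.81 to 137 ± 9.20 CPM in sh_TMEFF2, which is 1.34 and 0.74 on the log2 scale (adjusted p = 2e-07 and 0.00029 by edgeR). It was the member with the largest response in sh_TMEFF2. SPCS3, which the complex needs for cleavage, rose by 1.24 in sh_scramble and by 0.39 in sh_TMEFF2, and SPCS2 by 0.59 in sh_scramble with a value of 0.18 in sh_TMEFF2 that did not pass.

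The smallest response among the translocon genes was that of SRP54. SRP54, the GTPase of the signal recognition particle that binds the signal sequence, had 148, 149 and 148 CPM in sh_scramble −DHT, 177, 181 and 166 in sh_scramble +DHT, 150.0, 160.0 and 145 in sh_TMEFF2 −DHT and 144, 138 and 144 in sh_TMEFF2 +DHT. The 3 sh_scramble +DHT libraries were the highest of the 12, and in sh_TMEFF2 the +DHT libraries were all below the −DHT libraries. Its response was 0.24 in sh_scramble (SE 0.06, adjusted p = 0.0086 by edgeR) and −0.10 in sh_TMEFF2 (adjusted p = 0.32 by edgeR). SRPR, the docking subunit of the receptor for the particle, rose by 0.49 in sh_scramble, and SEC62 and SEC63, which help proteins that enter after synthesis, rose by 0.27 and 0.45.

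**Figure D2:**
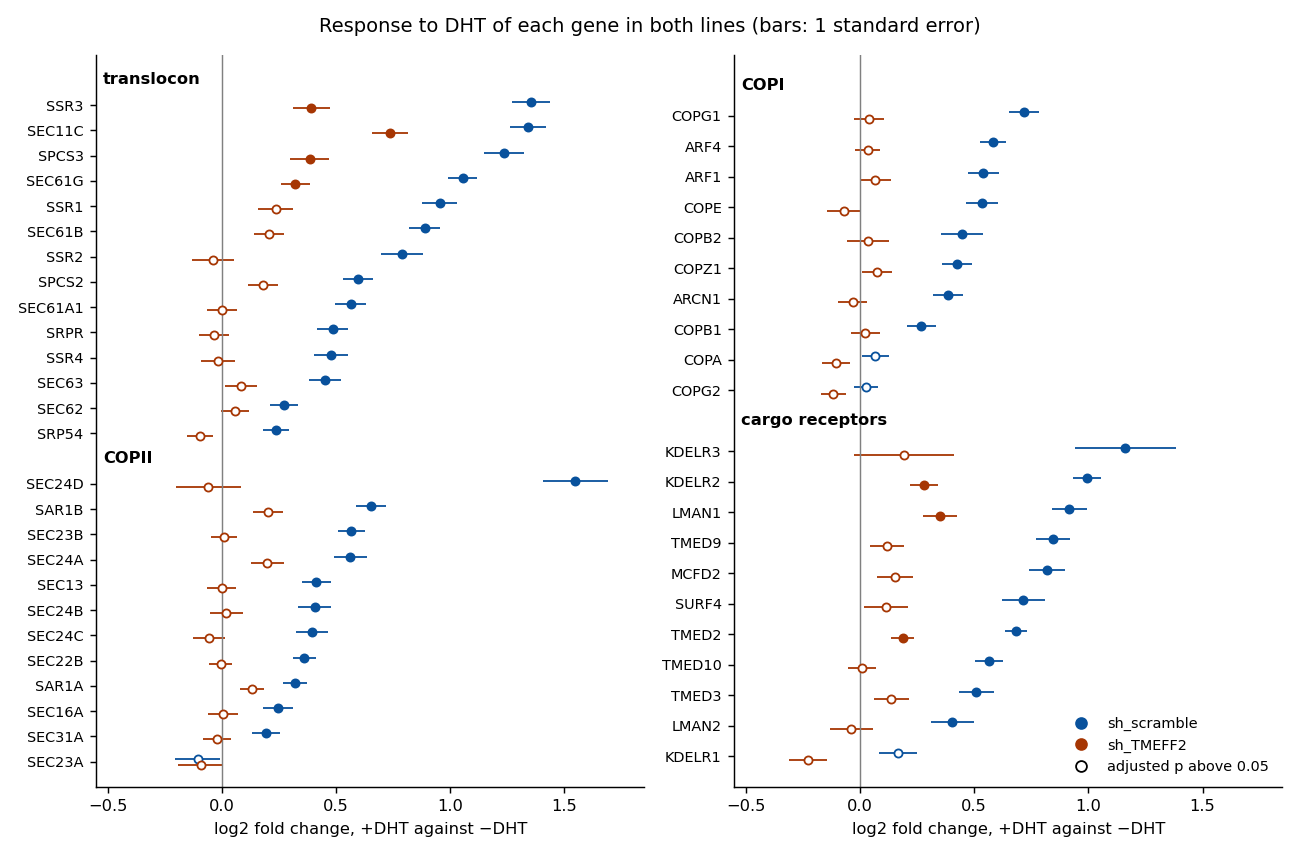
Log2 fold change with DHT of the 47 members in sh_scramble and in sh_TMEFF2, grouped by role, with bars of 1 standard error from edgeR; filled points have an adjusted p of at most 0.05. The points for sh_scramble reach from −0.11 (SEC23A) to 1.55 (SEC24D), and those for sh_TMEFF2 from −0.23 (KDELR1) to 0.74 (SEC11C).

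Of the 12 COPII genes, 11 rose with DHT in sh_scramble, with a median of 0.40, and edgeR called 0 of the 12 in sh_TMEFF2, where the median was 0.00 and the values ran from −0.09 to 0.20. In sh_TMEFF2 the unadjusted p was under 0.05 for 3 of the 12, where 27.2% of all genes had such a p, and DESeq2 called SAR1A, SAR1B and SEC24A higher. SEC24D, one of the cargo-binding subunits, had the largest response of all 47 members. It stood at 36.5, 28.8 and 35.1 CPM in sh_scramble −DHT, 119.9, 82.5 and 91.4 in sh_scramble +DHT, 41.4, 38.3 and 33.0 in sh_TMEFF2 −DHT and 38.9, 37.1 and 32.0 in sh_TMEFF2 +DHT. The sh_scramble +DHT libraries stood far above every other library, and the remaining groups overlapped one another. The response was 1.55 in sh_scramble (SE 0.14, adjusted p = 7.3e-06 by edgeR), a 2.92-fold rise, and −0.06 in sh_TMEFF2 (SE 0.14, adjusted p = 0.84 by edgeR).

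The other SEC24 genes rose less. SEC24A had 79.4, 88.6 and 84.5 CPM in sh_scramble −DHT, 129, 129 and 115 in sh_scramble +DHT, 75.2, 75.2 and 78.7 in sh_TMEFF2 −DHT and 86.0, 82.2 and 95.0 in sh_TMEFF2 +DHT, with the 3 sh_scramble +DHT libraries the highest and the sh_TMEFF2 −DHT libraries the lowest. SEC24B had 55.4, 55.2 and 56.0 CPM in sh_scramble −DHT, 70.4, 78.7 and 71.7 in sh_scramble +DHT, 56.1, 58.8 and 51.8 in sh_TMEFF2 −DHT and 52.4, 58.7 and 57.9 in sh_TMEFF2 +DHT. SEC24C had 224, 215 and 209 CPM in sh_scramble −DHT, 311, 268 and 273 in sh_scramble +DHT, 234, 243 and 218 in sh_TMEFF2 −DHT and 224, 233 and 211 in sh_TMEFF2 +DHT. For both, sh_scramble +DHT stood above all other libraries, and the sh_TMEFF2 groups overlapped with each other. The responses in sh_scramble were 0.56 for SEC24A, 0.41 for SEC24B and 0.39 for SEC24C (adjusted p = 0.00011, 0.0011 and 0.0011 by edgeR).

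SEC23A and SEC23B encode alternative forms of the subunit that pairs with SEC24 in the inner coat. SEC23B had 194, 192 and 191 CPM in sh_scramble −DHT, 306, 284 and 265 in sh_scramble +DHT, 198, 202 and 191 in sh_TMEFF2 −DHT and 194, 202 and 199 in sh_TMEFF2 +DHT. Only the sh_scramble +DHT libraries stood out, and its response was 0.57 there (SE 0.06, adjusted p = 1.7e-05 by edgeR) and 0.01 in sh_TMEFF2 (SE 0.06, adjusted p = 0.95 by edgeR). SEC23A had 159, 154 and 135 CPM in sh_scramble −DHT, 149.7, 142 and 124 in sh_scramble +DHT, 164, 179.7 and 142 in sh_TMEFF2 −DHT and 153, 141 and 161 in sh_TMEFF2 +DHT. Every pair of groups overlapped, and the response in sh_scramble was −0.11 (SE 0.10, adjusted p = 0.47 by edgeR), the only negative value among the members. Whether the responses of the paralogs differed from each other was not tested.

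SAR1A and SAR1B encode the GTPases that start the coat. SAR1B had 143, 152 and 145 CPM in sh_scramble −DHT, 239, 226 and 227 in sh_scramble +DHT, 165, 164 and 139 in sh_TMEFF2 −DHT and 179.9, 178 and 179 in sh_TMEFF2 +DHT. SAR1A had 118, 121 and 121 CPM in sh_scramble −DHT, 152, 151 and 146 in sh_scramble +DHT, 126, 125 and 120.5 in sh_TMEFF2 −DHT and 129.9, 136 and 141 in sh_TMEFF2 +DHT. For both genes sh_scramble +DHT was highest and all sh_TMEFF2 +DHT libraries lay above the sh_TMEFF2 −DHT libraries. SAR1B rose by 0.65 (SE 0.07, adjusted p = 1.8e-05 by edgeR) and SAR1A by 0.32 (SE 0.05, adjusted p = 0.00067 by edgeR) in sh_scramble. In sh_TMEFF2 neither passed, at 0.20 and 0.13 (adjusted p = 0.068 and 0.12 by edgeR). With the replicate number as a block, edgeR called SAR1B higher there. SAR1B and SEC24A overlap head to head on opposite strands of chromosome 5 in the annotation, and the table carries no strand, so reads from the shared stretch could belong to either.

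SEC22B, a SNARE that rides COPII and COPI vesicles, had 152, 158 and 160.3 CPM in sh_scramble −DHT, 207, 202 and 194 in sh_scramble +DHT, 161, 163 and 163 in sh_TMEFF2 −DHT and 162, 158 and 165 in sh_TMEFF2 +DHT. The sh_scramble +DHT libraries were the highest and the other groups lay close together. It rose by 0.36 in sh_scramble (SE 0.05, adjusted p = 0.00019 by edgeR) and had 0.00 in sh_TMEFF2 (SE 0.05, adjusted p = 0.97 by edgeR). The annotation names 3 pseudogenes after it, so some of its counts may come from near-identical copies. The outer coat genes SEC13 and SEC31A and the exit site scaffold SEC16A rose by 0.41, 0.19 and 0.24 in sh_scramble.

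Of the 10 COPI genes, 8 rose with DHT in sh_scramble, with a median of 0.44, and 0 passed in sh_TMEFF2 with edgeR or DESeq2 (1 at an unadjusted p under 0.05 with edgeR), where the values ran from −0.12 to 0.07. COPG1, the gamma subunit, had 229, 226 and 228 CPM in sh_scramble −DHT, 406, 363 and 355 in sh_scramble +DHT, 228, 258 and 239.7 in sh_TMEFF2 −DHT and 251, 238 and 256 in sh_TMEFF2 +DHT. The sh_scramble +DHT libraries stood above all others, and the sh_TMEFF2 groups overlapped with each other. The response was 0.72 in sh_scramble (SE 0.07, adjusted p = 6.1e-06 by edgeR) and 0.04 in sh_TMEFF2 (SE 0.06, adjusted p = 0.75 by edgeR). COPG2, its paralog, had 80.3, 81.5 and 77.0 CPM in sh_scramble −DHT, 83.3, 82.1 and 77.8 in sh_scramble +DHT, 76.9, 78.7 and 76.4 in sh_TMEFF2 −DHT and 71.8, 70.4 and 71.7 in sh_TMEFF2 +DHT. Here both sh_scramble groups and the sh_TMEFF2 −DHT group overlapped, and the sh_TMEFF2 +DHT libraries were the lowest. The response of COPG2 was 0.03 in sh_scramble (SE 0.05, adjusted p = 0.76 by edgeR) and −0.12 in sh_TMEFF2 (SE 0.05, adjusted p = 0.18 by edgeR). COPG2 overlaps the protein-coding genes TSGA13 and MEST in the annotation.

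ARF4, a GTPase that recruits the coat, had 248, 252 and 242 CPM in sh_scramble −DHT, 386, 372 and 355 in sh_scramble +DHT, 250.4, 276 and 249 in sh_TMEFF2 −DHT and 263, 265 and 265 in sh_TMEFF2 +DHT. COPE, the epsilon subunit, had 113, 118 and 113 CPM in sh_scramble −DHT, 178, 153 and 166 in sh_scramble +DHT, 130.3, 133 and 131 in sh_TMEFF2 −DHT and 123, 136 and 116 in sh_TMEFF2 +DHT. In both the sh_scramble +DHT libraries were the highest, and for COPE the sh_TMEFF2 −DHT libraries also lay above those of sh_scramble −DHT. ARF4 rose by 0.58 (SE 0.06, adjusted p = 9.2e-06 by edgeR) and COPE by 0.54 (SE 0.07, adjusted p = 0.00013 by edgeR) in sh_scramble. In sh_TMEFF2 the responses were 0.03 and −0.07 (adjusted p = 0.76 and 0.56 by edgeR). Of the remaining subunits, ARCN1, COPZ1, COPB2 and COPB1 rose by 0.39, 0.43, 0.45 and 0.27 in sh_scramble, whereas COPA, the largest, was at 0.07 (adjusted p = 0.45 by edgeR). ARF1, the main GTPase of the coat, rose by 0.54.

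Of the 11 cargo receptor genes, 10 rose with DHT in sh_scramble, with a median of 0.72, and 3 in sh_TMEFF2 (TMED2, LMAN1 and KDELR2), with a median of 0.14. KDELR2, a receptor that returns ER chaperones ending in KDEL, had 200.0, 198 and 200.3 CPM in sh_scramble −DHT, 421, 397 and 372 in sh_scramble +DHT, 206, 200.0 and 212 in sh_TMEFF2 −DHT and 236, 249 and 265 in sh_TMEFF2 +DHT. The groups fell into the order sh_scramble +DHT, sh_TMEFF2 +DHT and then both −DHT groups, which overlapped. The log2 response was 0.99 in sh_scramble (SE 0.06, adjusted p = 2.6e-07 by edgeR) and 0.28 in sh_TMEFF2 (SE 0.06, adjusted p = 0.01 by edgeR).

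KDELR1 and KDELR3 encode the other KDEL receptors. KDELR1 had 117, 122 and 105 CPM in sh_scramble −DHT, 141, 118 and 128 in sh_scramble +DHT, 115, 123 and 119 in sh_TMEFF2 −DHT and 109.7, 99.9 and 94.9 in sh_TMEFF2 +DHT. Its sh_scramble groups overlapped and its sh_TMEFF2 +DHT libraries were below all sh_TMEFF2 −DHT libraries. Its response was 0.17 in sh_scramble (SE 0.08, adjusted p = 0.16 by edgeR) and −0.23 in sh_TMEFF2 (SE 0.08, adjusted p = 0.092 by edgeR), so neither passed. KDELR3, at 5.37 CPM or less, had 1.67, 2.31 and 2.59 CPM in sh_scramble −DHT, 5.10, 5.37 and 4.25 in sh_scramble +DHT, 2.21, 2.74 and 3.02 in sh_TMEFF2 −DHT and 2.55, 2.92 and 3.65 in sh_TMEFF2 +DHT. The sh_scramble +DHT libraries were the 3 highest, and its response there was 1.16 (SE 0.22, adjusted p = 0.0019 by edgeR), against 0.19 in sh_TMEFF2 (SE 0.22, adjusted p = 0.63 by edgeR).

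**Figure D3:**
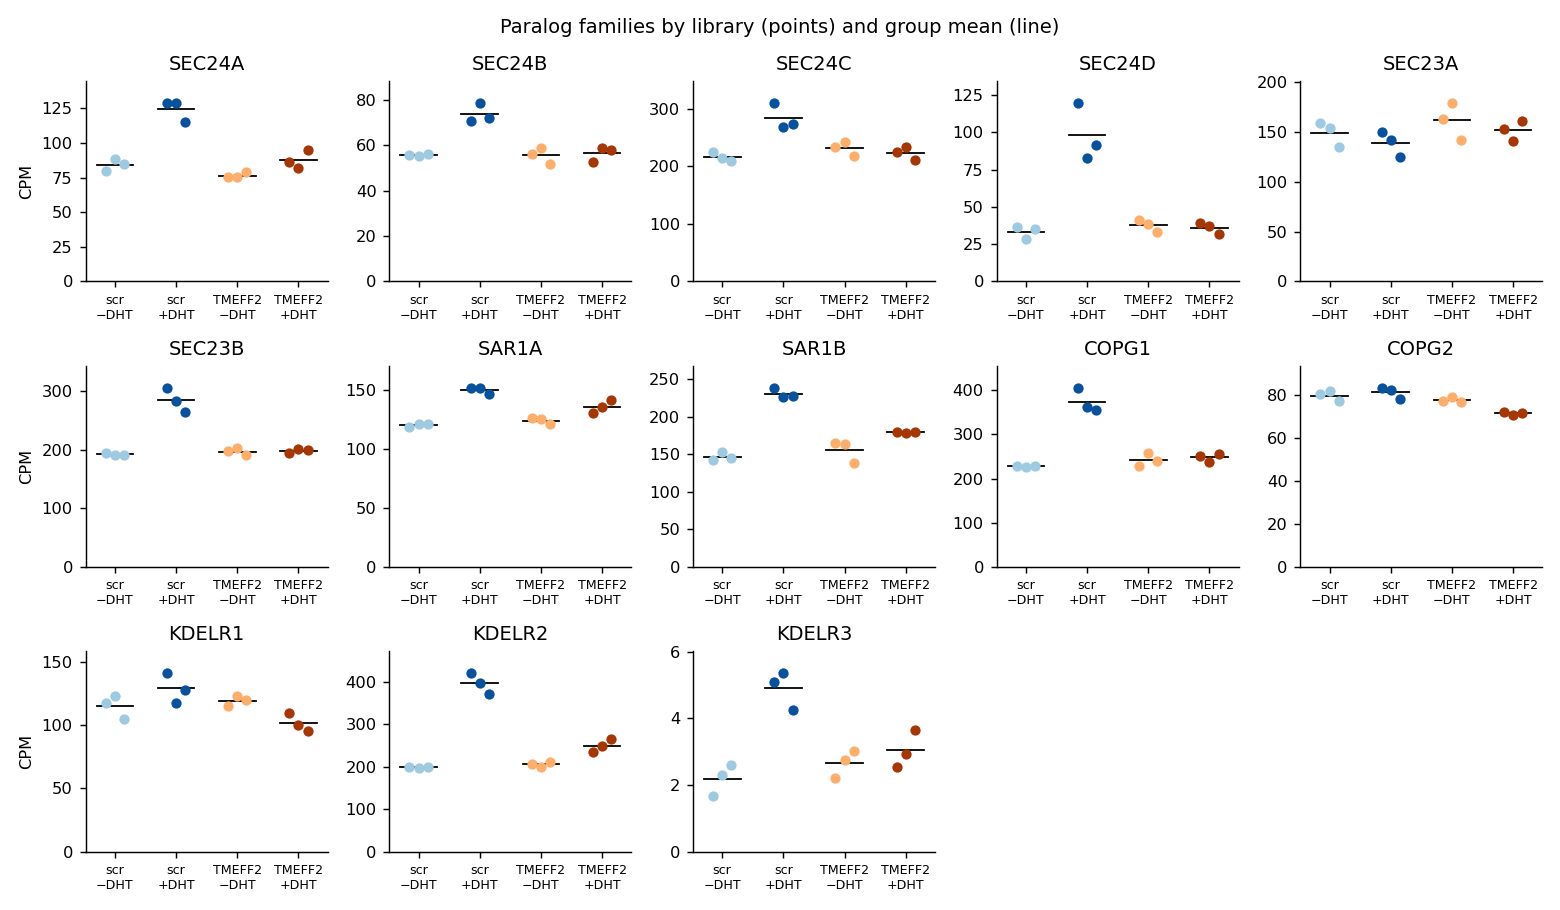
TMM-normalized CPM (linear axes from 0, a scale of its own for each gene) of paralogous members in each library, where points are libraries and lines are group means (n = 3). SEC24D, SEC23B, COPG1 and KDELR2 stand higher in all 3 sh_scramble +DHT libraries than in any other library, and SEC23A overlaps in every pair of groups.

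The TMED genes encode p24 proteins, which sort cargo into COPII and COPI vesicles. TMED2 had 364, 365 and 384 CPM in sh_scramble −DHT, 619.6, 571 and 595 in sh_scramble +DHT, 384, 381 and 384 in sh_TMEFF2 −DHT and 433, 426 and 449 in sh_TMEFF2 +DHT, with sh_scramble +DHT highest and sh_TMEFF2 +DHT between it and the −DHT groups. TMED9 had 97.4, 110.2 and 104 CPM in sh_scramble −DHT, 206, 178 and 177 in sh_scramble +DHT, 106, 99.7 and 109.9 in sh_TMEFF2 −DHT and 112, 119 and 111 in sh_TMEFF2 +DHT. Its groups kept the same order, with a smaller step in sh_TMEFF2. TMED2 rose by 0.68 in sh_scramble (SE 0.05, adjusted p = 9.5e-07 by edgeR) and 0.19 in sh_TMEFF2 (SE 0.05, adjusted p = 0.026 by edgeR), and TMED9 by 0.85 in sh_scramble (SE 0.07, adjusted p = 5.2e-06 by edgeR), with 0.12 in sh_TMEFF2 that did not pass (adjusted p = 0.35 by edgeR). The call of TMED2 in sh_TMEFF2 was lost with no filter, with the libraries of the comparison only, and without sh_TMEFF2 −DHT replicate 1, sh_TMEFF2 −DHT replicate 2 or sh_TMEFF2 +DHT replicate 3. TMED10 and TMED3 rose by 0.57 and 0.51 in sh_scramble.

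LMAN1, a lectin receptor for glycoproteins such as clotting factors, and its partner MCFD2 rose by 0.92 and 0.82 in sh_scramble. In sh_TMEFF2 their values were 0.35 (adjusted p = 0.0096 by edgeR) and 0.15 (adjusted p = 0.24 by edgeR). LMAN1 went from 219 ± 4.73 to 414 ± 29.7 CPM with DHT in sh_scramble (SD, n = 3), and from 185 ± 14.3 to 236 ± 16.7 CPM in sh_TMEFF2. SURF4, an export receptor for many soluble proteins, rose by 0.72 and LMAN2, another lectin, by 0.40 in sh_scramble.

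Without DHT the lines were close. None of the 47 members differed between sh_TMEFF2 and sh_scramble at an adjusted p of at most 0.05 with edgeR, where 0.623% of all genes were higher and 0.493% lower. The unadjusted p was under 0.05 for 5 members (SRPR, SEC11C, SEC13, COPE and LMAN1), compared with 13.5% of all genes. DESeq2 called 2, SRPR as higher and SEC11C as lower, and edgeR with the replicate number as a block called SEC11C as lower. The median log2 fold change was 0.05, and the values ran from −0.31 (SEC11C) to 0.28 (KDELR3). All 3 sh_TMEFF2 libraries lay above all 3 sh_scramble libraries for 6 members (9.35% of all genes) and below them for 5 members (9.18% of all genes).

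With DHT, 43 members were lower and 0 higher in sh_TMEFF2, where 9.09% of all genes were lower and 6.93% higher. The 4 not called were SEC16A, SEC23A, SAR1A and COPA. The median log2 fold change was −0.42, against 0.00 over all genes, and 16 members were lower by a fold of at least 1.5, compared with 3.74% of all genes. All 3 sh_TMEFF2 libraries lay below all 3 sh_scramble libraries for 45 members, all but SEC23A and COPA, which held for 17% of all genes. By role, 14 of 14 translocon, 9 of 12 COPII, 9 of 10 COPI and 11 of 11 cargo receptor genes were lower. SEC24D was lowest relative to sh_scramble, at −1.44 (SE 0.14, adjusted p = 2.6e-05 by edgeR), followed by SPCS3 (−0.97), SEC11C (−0.91), SSR1 and SSR3 (both −0.85), MCFD2 (−0.82) and LMAN1 (−0.81). Leaving out sh_scramble +DHT replicate 1, the library with the highest sums, 32 members were called lower. This comparison uses the same +DHT libraries as the DHT responses, so the counts are not separate evidence.

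How far the responses to DHT differed between the lines was tested directly, as an interaction over all 12 libraries. The response was the lower one in sh_TMEFF2 in 46 of the 47 members, all but SEC23A. It was called lower in 32 members at an adjusted p of at most 0.05. Of all genes, 3.29% had a lower and 1.65% a higher response by this rule. No member had a higher response by this rule. The median difference of the log2 responses was −0.47, against 0.01 over all genes. By role the calls were 12 of 14 translocon genes (median −0.58), 7 of 12 COPII genes (−0.38), 6 of 10 COPI genes (−0.42) and 7 of 11 cargo receptor genes (−0.57).

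SEC24D had the largest difference, −1.61 (SE 0.20, adjusted p = 0.00079 by edgeR). SSR3 followed at −0.96 (SE 0.12, adjusted p = 0.00064 by edgeR) among those that passed, with SPCS3 at −0.85 (adjusted p = 0.0016 by edgeR) and SSR2 at −0.82 (adjusted p = 0.0032 by edgeR). SEC61G, KDELR2 and TMED9 had −0.73, −0.71 and −0.73 (adjusted p = 0.00064, 0.00064 and 0.0018 by edgeR). SEC11C, which still rose in sh_TMEFF2, had −0.60 (adjusted p = 0.0081 by edgeR). The difference for KDELR3, −0.97, had a standard error of 0.31 and did not pass (adjusted p = 0.1 by edgeR). The 15 members that did not pass were SEC62, SEC63, SEC16A, SEC23A, SEC24A, SEC31A, SAR1A, COPA, COPB1, COPB2, COPG2, TMED3, LMAN2, KDELR1 and KDELR3. DESeq2 called 38 members, the 32 and SEC63, SEC24A, COPB2, TMED3, LMAN2 and KDELR1. SEC24B, SRP54 and COPZ1 passed narrowly (adjusted p = 0.048, 0.034 and 0.049 by edgeR). The edgeR count of 32 became 24 without sh_scramble +DHT replicate 1 and 24 without sh_TMEFF2 −DHT replicate 2.

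**Figure D4:**
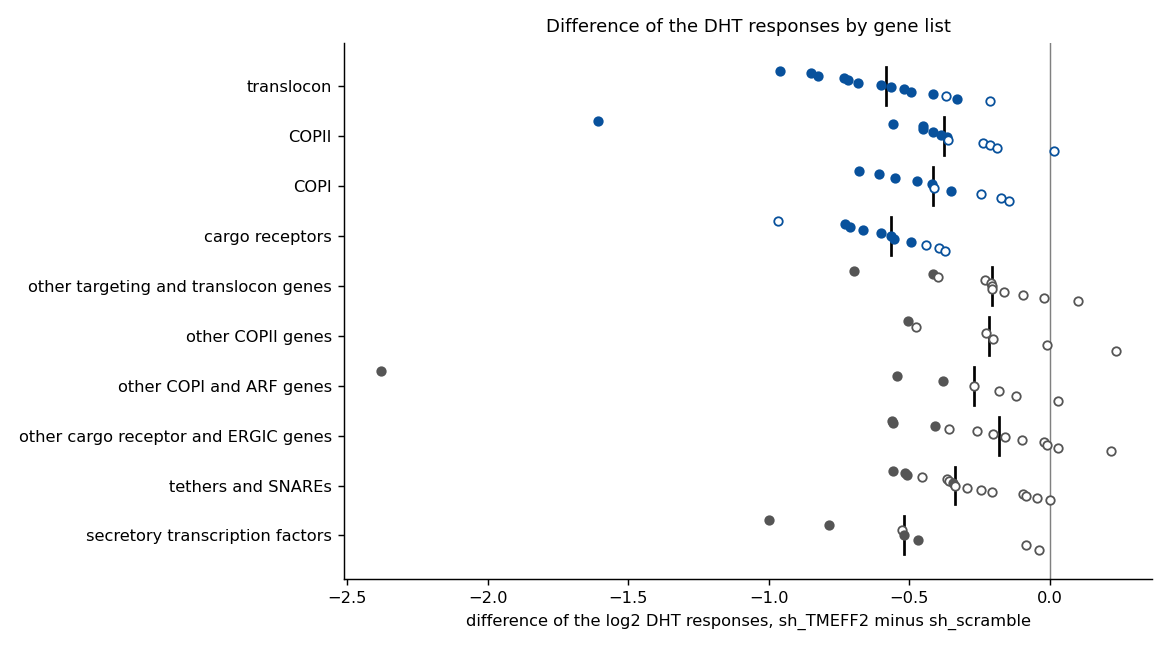
Difference of the log2 DHT responses, sh_TMEFF2 minus sh_scramble, for each gene of the member roles and of the other pathway lists, where 0 means an equal response and filled points have an adjusted p of at most 0.05 (edgeR). Members lie from −1.61 (SEC24D) to 0.01 (SEC23A), and the lowest gene of the other lists is ARFGAP2 at −2.38.

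The luminal keratins KRT8 and KRT18 moved with the members. KRT8 had 469, 444 and 431 CPM in sh_scramble −DHT, 1272, 1085 and 1059 in sh_scramble +DHT, 470.3, 545 and 461 in sh_TMEFF2 −DHT and 427, 492 and 413 in sh_TMEFF2 +DHT, a response of 1.35 in sh_scramble (adjusted p = 5.7e-07 by edgeR). KRT18 rose by 1.13 in sh_scramble (adjusted p = 2.2e-07 by edgeR) and had 0.06 in sh_TMEFF2 (adjusted p = 0.59 by edgeR). For both, only the sh_scramble +DHT libraries were high. KLK3 rose in both lines, by 1.96 and 2.45 on the log2 scale (adjusted p = 3.9e-05 and 0.00011 by edgeR), from −DHT mean levels of 1925 ± 26.5 CPM in sh_scramble and 356 ± 134 CPM in sh_TMEFF2 (SD, n = 3). KLK3 was lower in sh_TMEFF2 than in sh_scramble without and with DHT (−2.43 and −1.94, adjusted p = 0.00028 and 8.3e-05 by edgeR). TMPRSS2 also rose in sh_scramble, by 2.97, and its 0.70 in sh_TMEFF2 did not pass (adjusted p = 0.37 by edgeR). With DHT TMPRSS2 was lower in sh_TMEFF2, by −2.22 (adjusted p = 0.0076 by edgeR), and its difference of the responses did not pass (adjusted p = 0.074 by edgeR). FOLH1 and HOXB13 fell in sh_scramble (−0.88 and −0.36) and in sh_TMEFF2 (−0.38 and −0.34). Of the 13 markers of other cell types 6 had enough counts to be tested, and in sh_scramble 1 rose with DHT and 4 fell. KRT14, at or under 1.46 CPM, rose (adjusted p = 0.0022 by edgeR), and COL1A1, COL3A1, PTPRC and VWF fell, with values of −0.61, −2.11, −0.59 and −0.64 on the log2 scale (adjusted p = 0.0034, 0.00099, 0.034 and 0.034 by edgeR). In sh_TMEFF2 COL1A1 alone was called, at −0.68 (adjusted p = 0.0043 by edgeR). COL3A1, at 1.74 ± 0.238 and 0.398 ± 0.0525 CPM without and with DHT in sh_scramble (SD, n = 3), had a difference of the responses of 2.36 (adjusted p = 0.014 by edgeR). With DHT, 3 of these 6 markers were higher and 1 lower in sh_TMEFF2 than in sh_scramble. The part of these markers in the members' values was not tested.

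Other genes of the same route were taken as 5 lists of 53 genes, of which 51 were tested and SEC16B and COPZ2 were too low in counts. With DHT in sh_scramble 25 rose and 3 fell, with a median log2 fold change of 0.24, where 14.4% of all genes rose and 12.6% fell. The 3 that fell were SEC31B, a second outer coat gene (−0.52), LMAN2L (−0.29) and ARF5 (−0.21). In sh_TMEFF2 ERGIC2 and CNIH4 rose and ARFGAP2 and ARF5 fell, where 7.84% of all genes rose and 5.21% fell. There 0 were called higher without sh_TMEFF2 +DHT replicate 3 and 4 without sh_scramble +DHT replicate 3, and DESeq2 called 6. SEC31B, LMAN2L, ARF5 and CNIH4 are named because of these counts, after their values were seen. With DHT, 24 were lower in sh_TMEFF2 than in sh_scramble and 1 was higher, where 9.09% of all genes were lower and 6.93% higher. The difference of the responses was called for 13, all lower in sh_TMEFF2, where 3.29% of all genes were called lower and 1.65% higher. For ARFGAP2 this was a larger fall with DHT in sh_TMEFF2 than in sh_scramble (−2.47 and −0.09). The median difference over the 51 was −0.23. The count of 13 became 7 without sh_scramble +DHT replicate 1, 8 without sh_scramble −DHT replicate 2 and 8 without sh_TMEFF2 +DHT replicate 3.

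By list, the calls for the difference were SRP19 and TRAM1 of 11 other targeting and translocon genes, MIA3 of 6 tested COPII genes, GBF1, ARFGAP2 and ARFGAP3 of 7 tested COPI and ARF genes, TMED5, TMED7 and ERGIC2 of 12 cargo receptor and ERGIC genes, and USO1, GOLGA2, BET1 and RAB1A of 15 tethers and SNAREs. Some of these calls rested on the setting, and of 19 alternatives the call was kept in 4 for SRP19, 10 for BET1, 11 for MIA3, 13 for GBF1, 14 for GOLGA2 and 16 for RAB1A, and in all 19 for the other 7. TRAM1, a membrane protein beside the channel, rose from 139.7 ± 1.01 to 257 ± 12.3 CPM with DHT in sh_scramble (SD, n = 3) and stood at 133 ± 5.66 and 151 ± 12.4 CPM in sh_TMEFF2. Its difference of −0.70 (SE 0.09, adjusted p = 0.0013 by edgeR) was larger in size than that of any other gene of these lists except ARFGAP2. MIA3, which loads large cargo such as collagen into COPII carriers, had a difference of −0.50, and the Golgi tether USO1 one of −0.52 (adjusted p = 0.021 and 0.0051 by edgeR). The paralogs SEC11A and SEC61A2 of the members SEC11C and SEC61A1 had responses in sh_scramble of 0.18 and −0.05 (adjusted p = 0.039 and 0.84 by edgeR).

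ARFGAP2, a GTPase-activating protein of ARF1, had 61.4, 59.1 and 59.5 CPM in sh_scramble −DHT, 62.2, 57.2 and 49.7 in sh_scramble +DHT, 468, 252 and 189.7 in sh_TMEFF2 −DHT and 54.5, 56.9 and 52.7 in sh_TMEFF2 +DHT. The 3 sh_TMEFF2 −DHT libraries lay far above the other 9 and differed widely among themselves. The log2 fold change between the lines without DHT was 2.34 (SE 0.25, adjusted p = 0.00066 by edgeR), and 1.88 without sh_TMEFF2 −DHT replicate 1, the highest library. TMED4, a p24 gene outside the members that was chosen after its values were seen, had 89.7, 100.4 and 99.2 CPM in sh_scramble −DHT, 90.8, 95.7 and 94.5 in sh_scramble +DHT, 127, 134 and 126 in sh_TMEFF2 −DHT and 124, 129 and 130.1 in sh_TMEFF2 +DHT. It was higher in sh_TMEFF2 at both DHT levels without overlap, by 0.42 (SE 0.06, adjusted p = 0.0054 by edgeR) and 0.45 (SE 0.06, adjusted p = 0.00028 by edgeR), and did not respond to DHT past the threshold in either line (−0.04 and −0.01). ARFGAP2 and TMED4 were the only 2 of the 51 genes called between the lines without DHT.

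**Figure D5:**
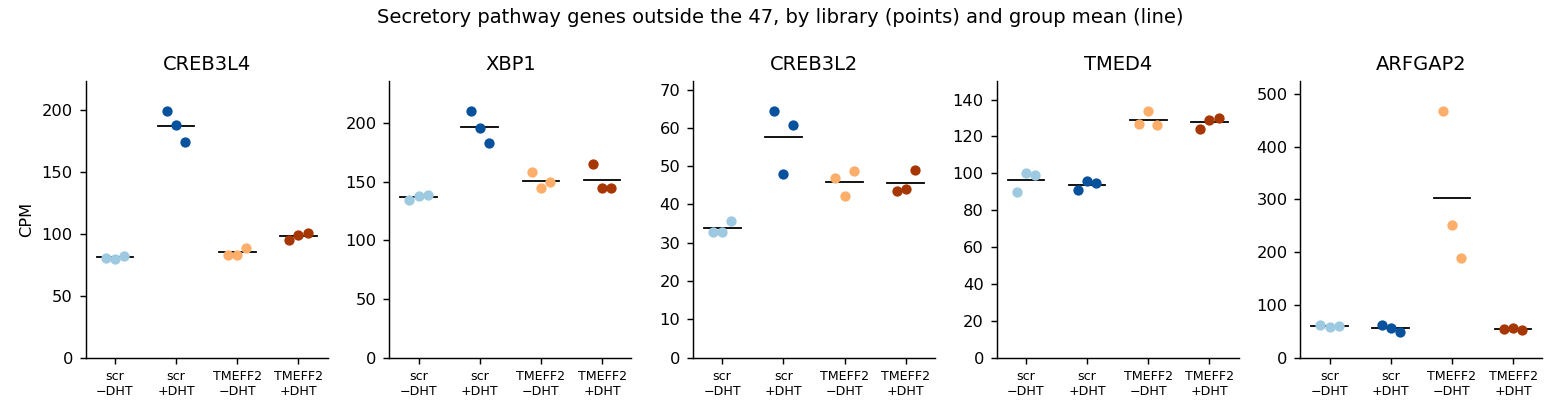
TMM-normalized CPM (linear axes from 0, a scale of its own for each gene) in each library of selected transcription factors and other pathway genes, where points are libraries and lines are group means (n = 3). CREB3L4 is higher in the sh_scramble +DHT libraries than in any other, ARFGAP2 is high in the sh_TMEFF2 −DHT libraries alone, and TMED4 is higher in all 6 sh_TMEFF2 libraries than in all 6 sh_scramble libraries.

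The transcription factor XBP1 and membrane-bound factors of the ATF6 and CREB3 families are known to act on secretory pathway genes, and 7 such genes were measured. The difference of the responses was called for 4. CREB3L4, which is known for its expression in prostate, had 80.5, 79.9 and 82.4 CPM in sh_scramble −DHT, 199, 188 and 174 in sh_scramble +DHT, 83.1, 83.3 and 88.7 in sh_TMEFF2 −DHT and 95.0, 99.1 and 100.5 in sh_TMEFF2 +DHT. The sh_scramble +DHT libraries were far above all others, and the sh_TMEFF2 +DHT libraries lay just above both −DHT groups. Its response was 1.21 in sh_scramble (SE 0.06, adjusted p = 7.3e-08 by edgeR) and 0.21 in sh_TMEFF2 (SE 0.06, adjusted p = 0.044 by edgeR), a difference of −1.0 (adjusted p = 8.4e-05 by edgeR). XBP1, the factor of the IRE1 branch of the unfolded protein response, had 134, 138 and 139 CPM in sh_scramble −DHT, 211, 196 and 183 in sh_scramble +DHT, 159, 144 and 150.2 in sh_TMEFF2 −DHT and 165, 145 and 144 in sh_TMEFF2 +DHT. Only sh_scramble +DHT stood out, with a response of 0.52 (SE 0.07, adjusted p = 0.00017 by edgeR) against 0.00 in sh_TMEFF2 and a difference of −0.52 (adjusted p = 0.011 by edgeR). The table does not separate the spliced form of XBP1.

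CREB3L2 had a difference of −0.79 (adjusted p = 0.0085 by edgeR), with 33.8 ± 1.68 and 57.8 ± 8.59 CPM in sh_scramble and 46.0 ± 3.47 and 45.5 ± 2.96 CPM in sh_TMEFF2 (SD, n = 3). CREB3 had one of −0.47 (adjusted p = 0.027 by edgeR), with a log2 response of 0.16 in sh_scramble that did not pass and of −0.30 in sh_TMEFF2 that did (adjusted p = 0.13 and 0.022 by edgeR). ATF6, ATF6B and CREB3L1 had responses in sh_scramble of −0.02, −0.10 and 0.81 that did not pass (adjusted p = 0.87, 0.52 and 0.12 by edgeR). CREB3L1 was near the limit of detection, at up to 2.44 CPM.

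Since most members rose together in sh_scramble, their promoters were searched for letters that these factors are known to bind. RefSeq windows on GRCh38.p14, from 250 bases before to 50 bases after the start site, were matched for 42 of the 47 members, and SRPR, SEC24D, ARF4, TMED9 and KDELR2 had no match. The letters TGACGTGG, named for XBP1 and ATF6, were found on either strand in 11 of the 42 (26.2%), compared with 0.926% of the 27311 genes with a window and 1.19% of the 11015 tested genes with one. They contain TGACG, which is part of the cyclic AMP response element, so every match is also a match to that shared part. COPB2 has 2 windows, which were counted as 1 gene. The 11 were SEC62, SSR3 and SSR4 of the translocon, SEC16A, SEC23A and SEC24A of COPII, COPA, COPB1, COPB2 and ARF1 of COPI, and the receptor KDELR3. The ER stress response element (CCAAT, 9 bases, CCACG) and its second form (ATTGG, 1 base, CCACG) were found in 0 of the 42 on either strand. They were found in 0.0915% and 0.0696% of the 27311 genes with a window, and in 0.154% and 0.127% of the 11015 tested ones. With shares this low, 0 of the 42 says little about the members. A match describes letters and does not show binding.

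Of the 11 members with the letters TGACGTGG 9 rose with DHT in sh_scramble, and of the 31 without these letters 29 rose, as did the 5 without a window. The windows shown are SEC24A and ARF1, which rose, and SEC23A and COPA, 2 of the 4 members that did not pass. Capitals mark TGACGTGG, which lies on the same strand as the gene in all 4. Counted from the start site at 1, the letters begin at −179 in SEC24A, at −16 in ARF1 and at −4 in SEC23A, and they span 6 to 13 in COPA. The windows are chr5:134648535-134648834 (plus strand) for SEC24A, chr1:228082458-228082757 (plus strand) for ARF1, chr14:39103186-39103485 (minus strand) for SEC23A and chr1:160343201-160343500 (minus strand) for COPA, printed 5′ to 3′ along the gene.
SEC24A: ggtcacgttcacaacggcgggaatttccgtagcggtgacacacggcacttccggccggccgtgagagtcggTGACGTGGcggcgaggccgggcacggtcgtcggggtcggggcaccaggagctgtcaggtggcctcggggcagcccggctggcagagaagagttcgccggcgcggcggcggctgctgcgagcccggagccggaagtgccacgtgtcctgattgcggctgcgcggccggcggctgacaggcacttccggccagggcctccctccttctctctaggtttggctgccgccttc
ARF1: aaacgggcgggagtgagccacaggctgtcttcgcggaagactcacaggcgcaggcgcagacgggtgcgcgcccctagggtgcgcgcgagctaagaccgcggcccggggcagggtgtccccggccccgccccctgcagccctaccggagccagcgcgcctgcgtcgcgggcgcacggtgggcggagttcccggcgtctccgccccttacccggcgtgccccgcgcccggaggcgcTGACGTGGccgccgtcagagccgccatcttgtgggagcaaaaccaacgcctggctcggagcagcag
SEC23A: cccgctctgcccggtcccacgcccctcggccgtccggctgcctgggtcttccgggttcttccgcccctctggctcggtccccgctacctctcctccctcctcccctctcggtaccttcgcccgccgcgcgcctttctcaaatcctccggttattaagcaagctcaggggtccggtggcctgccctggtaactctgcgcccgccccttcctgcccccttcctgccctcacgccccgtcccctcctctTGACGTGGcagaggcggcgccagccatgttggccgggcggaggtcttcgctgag
COPA: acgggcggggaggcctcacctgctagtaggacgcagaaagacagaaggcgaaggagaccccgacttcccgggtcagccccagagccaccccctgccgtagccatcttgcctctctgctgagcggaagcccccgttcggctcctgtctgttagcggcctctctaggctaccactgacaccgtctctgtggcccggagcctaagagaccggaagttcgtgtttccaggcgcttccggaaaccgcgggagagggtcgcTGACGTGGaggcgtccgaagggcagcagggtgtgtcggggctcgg

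On GENCODE positions for GRCh38, 38 of the 47 members overlap another annotated gene, 14 of them on the same strand and 16 of them a protein-coding gene, and 14 have pseudogenes named after them, among them SEC61G, SAR1A, ARF1 and ARF4. No strand is given in the table, which leaves some of their counts uncertain. SEC24D lies on chromosome 4 from 118722823 to 118838683, minus strand, with no overlapping gene and no such pseudogene, and SEC23B, SEC61B, SEC11C, LMAN1, TMED9, KDELR1 and SURF4 likewise share their span with no annotated gene and have no pseudogene of their name.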

How the data were processed

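RNA-seq of 12 LNCaP libraries in 4 groups of 3 was analysed from a gene table. The authors checked 75 bp paired-end NextSeq 500 reads with FastQC, trimmed them with Trimmomatic to at least 15 bp, and quantified transcripts with kallisto 0.42.3 on GRCh38, with bias correction. The values they deposited are estimated counts per gene, by the table's title scaled by transcript length and library size, so a change of isoform does not by itself change a gene's count. Each library has 2 columns (24 in all, 0 unassigned), which were taken as repeat runs, summed and rounded. Between the 2 columns of a library the median chi-square over genes was 2.48 to 2.76 times that expected of random sampling. Between the first columns of 2 replicates it was 4.07 to 5.04 times. The columns thus differed by more than random sampling and by less than replicates did, and the cause was not tested.

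Counts were tested in R 4.3.3 with edgeR 4.0.16, using TMM factors (0.955 to 1.04), filterByExpr (minimum count 10, minimum total 15), 1 coefficient per group over all 12 libraries, quasi-likelihood tests of 5 contrasts and Benjamini-Hochberg adjustment over 15419 genes. The common biological coefficient of variation was 0.131. The study's own test was DESeq2, at a 1.5-fold limit. Standard errors were derived from the log2 fold change and its F statistic. Members, lists and tests were chosen with earlier results of these data known. Every library's value is given for the 3 members of each role with the smallest p for the difference of the responses, the member of each role with the largest p for DHT in sh_scramble, paralog families, and TMEFF2. Other genes are named by a call for that difference, as secretory transcription factors, or with the reason. Positions are from GENCODE v44 and promoters from RefSeq. Alternatives were DESeq2 1.42.0, limma-voom (limma 3.58.1) on unrounded counts, a mean above 5 CPM, no filter, library size only, RLE factors, a fit to the groups compared only, a block for replicate number and each library left out. The code was run on simulated counts in which known genes, fewer than were called in these data, changed with DHT in sh_scramble alone. That run checks the code and not the calls reported here. The results for 1 luminal marker and 1 of 4 motifs searched are not reported here.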

Additional observations from a re-analysis of the deposited data

Results flagged for a closer look

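The responses of the lines to DHT differed, by edgeR's test of the difference itself at an adjusted p of at most 0.05, for 53 of the genes examined, 32 of them members. The values are the log2 response in sh_TMEFF2 minus that in sh_scramble, and those of the members, other pathway genes and transcription factors are all negative. For the translocon they were −0.56 (SEC61A1), −0.68 (SEC61B), −0.73 (SEC61G), −0.72 (SSR1), −0.82 (SSR2), −0.96 (SSR3), −0.49 (SSR4), −0.33 (SRP54), −0.52 (SRPR), −0.42 (SPCS2), −0.85 (SPCS3) and −0.60 (SEC11C). For COPII they were −0.42 (SEC13), −0.37 (SEC22B), −0.56 (SEC23B), −0.39 (SEC24B), −0.45 (SEC24C), −1.61 (SEC24D) and −0.45 (SAR1B). For COPI they were −0.61 (COPE), −0.68 (COPG1), −0.35 (COPZ1), −0.42 (ARCN1), −0.47 (ARF1) and −0.55 (ARF4). For the cargo receptors they were −0.50 (TMED2), −0.73 (TMED9), −0.56 (TMED10), −0.57 (LMAN1), −0.66 (MCFD2), −0.71 (KDELR2) and −0.60 (SURF4).

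For the other pathway genes the differences were −0.42 (SRP19), −0.70 (TRAM1), −0.50 (MIA3), −0.38 (GBF1), −2.38 (ARFGAP2), −0.54 (ARFGAP3), −0.41 (TMED5), −0.56 (TMED7), −0.56 (ERGIC2), −0.52 (USO1), −0.51 (GOLGA2), −0.56 (BET1) and −0.34 (RAB1A). For the transcription factors they were −0.52 (XBP1), −0.47 (CREB3), −0.79 (CREB3L2) and −1.0 (CREB3L4). Among the marker genes they were −1.49 (KRT8), −1.07 (KRT18), 0.50 (FOLH1) and 2.36 (COL3A1). The value of ARFGAP2 comes from high −DHT libraries of sh_TMEFF2 and not from a rise with DHT in sh_scramble, where its response was −0.09.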

How the results depend on the processing

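The main counts kept their direction under every alternative run. With DHT in sh_TMEFF2 the number of members called higher was 7, 13 with DESeq2 (the 7 and SAR1A, SAR1B, SEC24A, SEC61B, SPCS2 and SSR1), and 4, without sh_TMEFF2 +DHT replicate 3, to 9, without sh_scramble +DHT replicate 1, when 1 library was left out. The number with a 1.5-fold rise there stayed at 1 in each such fit. The other pathway genes called higher there were 2, 6 with DESeq2, 1 with no filter, 1 with the libraries of the comparison only, and 0 to 4 with 1 library left out, where 0 was without sh_TMEFF2 +DHT replicate 3. Without DHT, DESeq2 called 1 member higher (SRPR) and 1 lower (SEC11C), where the count was 0 in each direction. In fits that left out 1 library those counts were 0 and 0, and the other pathway genes called higher and lower were 2 and 0. The cause of these changes was not tested.

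With 1 library left out, the members higher with DHT in sh_scramble numbered 41 to 43 (17 to 23 at 1.5-fold) and the other pathway genes 22 to 25. Members lower with DHT in sh_TMEFF2 than in sh_scramble numbered 32, without sh_scramble +DHT replicate 1, to 42 (12 to 16 at 1.5-fold), and other pathway genes 16 to 24. Members with a lower response in sh_TMEFF2 numbered 24, without sh_scramble +DHT replicate 1 or sh_TMEFF2 −DHT replicate 2, to 32. Other pathway genes with a lower response numbered 7 to 14. Of the 32 calls for the difference of the responses, COPZ1 and SEC24B each lost theirs in 11 of the 12 fits, SRP54 in 10, SPCS2 in 7, ARCN1 in 6, SURF4 in 5, SEC24C and SSR4 in 4, SEC13 in 3 and SAR1B in 1. With no filter COPZ1, SEC24B and SRP54 were lost, with library size only these and SPCS2, with RLE factors COPZ1 and SEC24B, and with a mean above 5 CPM or limma-voom SEC24B. CREB3L4 kept its call for that difference in all 19 alternatives, whereas CREB3 kept it in 11 of 19, and the rise of CREB3L4 with DHT in sh_TMEFF2 held in 11 of 20. The median log2 fold change of the members with DHT in sh_scramble was 0.47 with library size only and 0.48 to 0.57 with 1 library left out. KDELR3 gave no value under the filter at a mean above 5 CPM.

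For TMEFF2 mRNA, the log2 response to DHT with 1 library left out was 0.75 to 1.02 in sh_scramble and 0.62 to 1.11 in sh_TMEFF2, and it lost its call in 4 of 12 fits in each line. With the libraries of the comparison only it was 0.87 in sh_TMEFF2 (adjusted p = 0.064 by edgeR) and not called. Between the lines it was −0.65 to −0.18 without DHT and −0.58 to −0.24 with DHT.

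The groups share replicate numbers in the labels. Deviations of same-numbered libraries from their group means correlated at −0.0017 to 0.17 over genes (18 pairs, 17 of them positive, median 0.072, 3 pairs above 0.1), and those of differently numbered libraries at −0.14 to 0.066 (36 pairs, median −0.028, 0 above 0.1). A library correlated best with its own number in 33 of 36 cases of 1 library against the 3 of another group, and 9 of the 12 libraries did so in every group. This is a hint from the data that the numbers are shared. The limit for taking them as pairs was a correlation above 0.1 in every pair, which was not met, so the samples were not treated as paired. With the replicate number as a block, the members called higher with DHT in sh_TMEFF2 were 10, the 7 and SAR1B, SEC61B and SSR1. Those called for the difference of the responses were 34, the 32 and COPB2 and SEC63, and 1 member, SEC11C, was called lower without DHT.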

Other observations

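Some genes of the route did not follow the members. Those given here were chosen after their values were seen. Among the protein genes of the signal recognition particle, SRP9 and SRP14 had DHT responses in sh_scramble of −0.11 and −0.05 that did not pass (adjusted p = 0.17 and 0.64 by edgeR), whereas SRP68 and SRP72 rose by 0.30 and 0.27 (adjusted p = 0.0034 and 0.0041 by edgeR) and SRP19 by 0.65 (adjusted p = 5.1e-05 by edgeR). SPCS1, a signal peptidase subunit, was at 0.08 (adjusted p = 0.34 by edgeR). The cornichon gene CNIH4 rose by 0.29 in sh_scramble and 0.28 in sh_TMEFF2, a difference of −0.01 that did not pass (adjusted p = 0.98 by edgeR). CREB3L1, at 2.44 CPM or less, was lower in sh_TMEFF2 with DHT, at −2.04 on the log2 scale (SE 0.39, adjusted p = 0.0037 by edgeR), and without DHT its value of −1.51 did not pass (adjusted p = 0.11 by edgeR).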
